A study of Mus musculus with 18 samples.

Results

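Circular RNAs whose ends lie far apart on the chromosome were described in mouse liver, using a table of 434 circular RNAs. Span was taken as the distance from the first to the last genomic base of a circle, all 434 were sorted by it, and the 217 with the longest span were taken as members. Their spans ran from 4696 to 189347 bases, with a median of 11453. The other 217, called short-span here, ran from 143 to 4686 bases, with a median of 1632. On either side of the split the neighbours were close to each other, with Tom1l2 (4685 bases) and Lnpk (4686) just outside and Ipo7 (4696) and Abcd3 (4752) just inside. The rule uses position alone and no measured level.

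A circular RNA forms when the splicing machinery joins a downstream donor site back to an upstream acceptor site, so that the RNA between them becomes a closed loop without free ends. The loop has no cap and no poly(A) tail, resists exonucleases, and is counted by reads that cross the back-splice junction. Genomic span is not the length of the RNA, because introns inside the loop are usually removed. Which exons each circle holds was not analysed here.

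The livers came from male C57BL/6 mice that were 6 weeks old at the start. The experiment held 45 mice, 15 of them per group, and sequencing covered 6 livers of each group taken in week 22. In the control group, olive oil was injected into the peritoneum and water was given by gavage. In the CCl4 group the injections held carbon tetrachloride (CCl4), a liver toxin used to induce liver cancer, and water was given in the same way. In the CCl4+PZH group the injections were those of the CCl4 group, and daily gavage delivered a Chinese remedy, Pien Tze Huang (PZH); the labels of these samples write PTH. Whole liver was used, so fewer cells of a type and less of an RNA per cell cannot be told apart. Each library is 1 mouse. Animals are named by the number in their label, which runs 1 to 5 and 8 in the controls, 1, 2, 4, 5, 7 and 8 after CCl4, and 1, 2, 3, 6, 7 and 8 after CCl4+PZH.

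The upstream end of a circle usually lies at a splice acceptor, whose intron ends in AG. The genome letters could be read for 3 members whose upstream end lies inside a RefSeq promoter window (250 bases before to 50 after an annotated gene start), and these are shown to make the boundary of a long-span circle visible. Capitals mark the AG directly before the first base of the circle. All are written 5′ to 3′ on the strand of the host gene, build GRCm38.p6, at chr13:37888791-37888890 (plus strand), chr13:64248494-64248521 (minus strand) and chr13:64248461-64248488 (minus strand).
Rreb1 circle: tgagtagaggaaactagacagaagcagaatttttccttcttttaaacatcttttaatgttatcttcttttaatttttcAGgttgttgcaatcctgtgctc
Cdc14b longer circle: ccgtccgtcgcggtcatcccAGactcgc
Cdc14b shorter circle: cttctcttgccctgctttccAGatgctt

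Rreb1 encodes a zinc finger transcription factor and Cdc14b a dual-specificity phosphatase. The Rreb1 circle (chromosome 13, 37888871 to 37899787, 10917 bases) began exactly at a base that RefSeq annotates as a start of Rreb1. In 6.07% of 32851 RefSeq promoter windows, AG stands directly before the annotated start. Of the 20 bases before that AG, 17 were C or T, against a median of 10 over all windows, and 2.57% of windows held as many. The 2 Cdc14b circles share their downstream end at 64243634 and begin 33 bases apart, at 64248499 and 64248466, each directly after an AG. The longer one begins 39 bases downstream of the annotated Cdc14b start. A match of letters is a description and not a mapped splice site.

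Depth was low. The 18 libraries held 900 to 2840 back-splice reads each over the whole table, 25803 in all, and the median value above 0 rested on 3 reads. A count of 0 allows up to 3 reads, which corresponds to 0.135 CPM (back-splice reads scaled to the authors' library total) in control 3 and 0.918 CPM in control 2. Summed CPM over the table was 40.4 in control 3, 387 in control 2 and 550 in control 4, and 85.5 to 251 in the other 15 libraries. Controls 2, 3 and 4 therefore stood apart from the rest on the CPM scale. Their sample records also lie in a separate range of numbers from those of the other 15 libraries. That separate range holds controls only. Whether these livers were prepared or sequenced separately is not given in the sources used here and was not tested. Leaving out controls 2 and 4 keeps control 3, whereas the fits on the remaining controls alone leave out all of that range. Where leaving out controls 2 and 4 turned a difference or ended a call, the value without them is given beside the result.

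The long-span circles lay mostly inside single genes. RefSeq placed 214 of the 217 inside 185 host genes, of which 210 were in genes for proteins, 3 in genes of long non-coding RNAs (2 in Lncpint, 1 in Gm39583) and 1 in the transcribed pseudogene Mug-ps1. Their hosts had a median length of 107623 bases, against 58866 for the hosts of short-span circles, and a member covered a median of 11.03% of its host, against 2.76%. A circle cannot be longer than its host, so part of this difference follows from the rule. Where strand was known, members began at a median of 34.1% of the way along the host (177 members), and short-span circles at 49.7% (160 circles). The shares that began upstream of the host's midpoint were 72.3% and 50.6%. Of the members, 11 contained or touched a RefSeq promoter window, and 6 did so for their own host, against 3 and 2 short-span circles. A longer stretch is more likely to reach a window, and a circle that covers more of its host has less room to begin late. Part of these differences therefore also follows from the rule. Phf21a, Cnot2, Spag9 and Vav3 circles each enclosed an annotated start of their own host. None of the 434 circles enclosed any of the 1005 miRNA hairpins in the RefSeq table.

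Span was not accompanied by a lower level in this table. The members held 12856 of 25803 reads (49.8%), a median of 39 reads per circle against 40 for short-span circles, and a median level of 0.288 against 0.312 CPM. Both sets were above 0 in a median of 12 libraries, and 5 circles of each were above 0 in all 18. When the members were split into 4 classes of increasing span, the classes held 12.8%, 13.3%, 13.3% and 10.3% of all reads, with median reads of 36, 39, 41 and 38. No circle of the table was detected in fewer than 9 libraries, so rarer circles are not seen here.

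**Figure D1:**
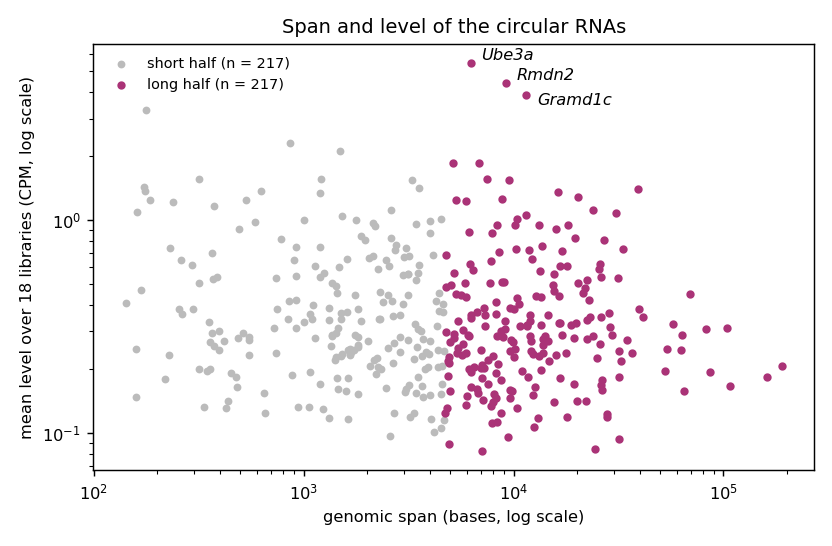
Mean level over the 18 libraries (vertical axis, CPM, log scale) against genomic span (horizontal axis, bases, log scale), with 1 point per circular RNA; purple points are the 217 long-span and grey points the 217 short-span circles. The medians of the sets are close, at 0.288 and 0.312 CPM, and the 3 highest points are the long-span circles of Ube3a, Rmdn2 and Gramd1c.

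The most abundant members were single circles of Rmdn2, Ube3a and Gramd1c, with 611, 609 and 524 reads, which together made up 13.6% of the long-span reads. The Rmdn2 circle (a gene named as a regulator of microtubule dynamics; chromosome 17, 79650302 to 79659473, 9172 bases) had a median of 4.65 CPM in controls (lowest 0, highest 15.1), 1.82 after CCl4 (1.38 to 3.07) and 4.79 after CCl4+PZH (2.36 to 8.68). The CCl4 values were close together and lay inside the wide range of the controls. Ube3a encodes a ubiquitin ligase, and its circle (chromosome 7, 59240967 to 59247217) had medians of 4.48 CPM (0 to 21.3), 2.80 (0 to 3.80) and 5.11 (0.151 to 9.41) in the same order. The circle of Gramd1c, a sterol transfer protein, had medians of 4.41 CPM (0.449 to 14.7), 3.40 (0 to 4.77) and 3.74 (0 to 6.87). None of the 3 passed the limma threshold in any comparison (smallest adjusted p = 0.763). Without controls 2 and 4 the Ube3a circle turned direction. Its difference went from -0.95 to 0.31 between CCl4 and control and from -0.21 to 1.05 between CCl4+PZH and control. With controls 1, 5 and 8 only, these differences were -0.85 and -0.11 and did not turn. Below these 3 members, the circles of Tlcd4 (a TLC domain protein), Erbin (a scaffold that binds ErbB2), Eed (a Polycomb subunit) and Mettl9 (a histidine methyltransferase) had 231, 251, 233 and 199 reads. The 20 most abundant members held 35.9% of the long-span reads. Most members were therefore each measured by few reads.

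The share of a library's reads that fell in long-span circles differed somewhat between groups, though hardly for the longest circles alone. It was lowest at 48.1% in the controls (animals 2 and 4), with a median of 53.4% and a highest value of 59.2% (animal 3). After CCl4 it ran from 44.9% to 49.8% with a median of 46.8%, and after CCl4+PZH from 46.1% to 52.6% with a median of 48.8%. Controls 1, 3, 5 and 8 lay above all 6 CCl4 livers, whereas controls 2 and 4 lay within their range. The 95% Wilson intervals were 56.0% to 62.4% for control 3 and 41.8% to 48.2% for CCl4 8, the lowest library, and cover counting error only. Without Rmdn2, Ube3a and Gramd1c the medians were 49.2%, 44.2% and 46.2%. For the longest 145 circles the group medians lay closer together, and for the longest 108 they were nearly equal (values in the last section). The share does not depend on how the libraries were scaled, and no test was made of it.

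**Figure D2:**
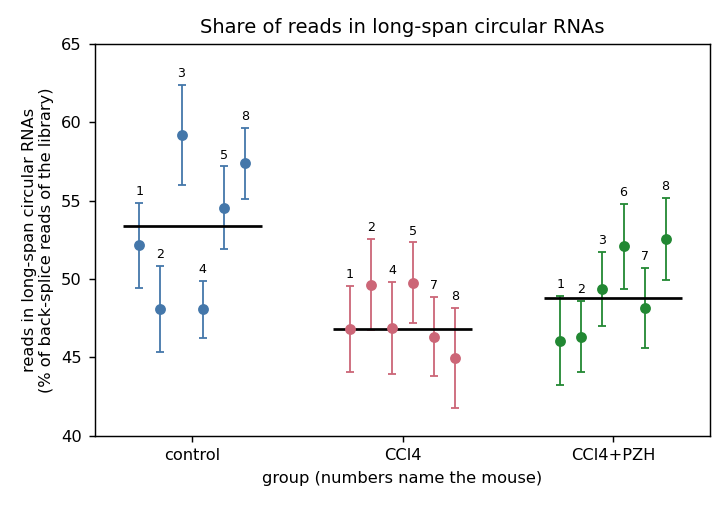
Percent of a library's back-splice reads that fell in the 217 long-span circles (vertical axis, from 40 to 65%), for 6 mice in each group (horizontal axis); points are libraries, bars their 95% Wilson intervals and horizontal lines the group medians. The medians are 53.4% in controls, 46.8% after CCl4 and 48.8% after CCl4+PZH, and controls 2 and 4 sit among the CCl4 libraries.

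In the comparison of CCl4 with control livers, 1 long-span circle fell, that of Ttc39c, a tetratricopeptide repeat gene. Its level was 1.77 ± 0.911 CPM in controls and 0.151 ± 0.149 CPM after CCl4 (SD, n = 6 each). By limma with Benjamini-Hochberg adjustment, 1 of 217 members passed an adjusted p of 0.05, against 0.691% of all 434 circles tested (3 circles). At an unadjusted p under 0.05 there were 19 members, 15 lower and 4 higher, against 8.29% of all circles. Groups did not overlap for 3 members, Ttc39c, Psd3 and Vrk2, against 0.691% of all circles. edgeR called 3 members (Ttc39c, Tlk1 and Vrk2), against 1.15% of all, and DESeq2 called 2 (Ttc39c and Vrk2), against 0.691%. The members' share of calls was near the background in each count except that of groups without overlap, where the 3 members were the only such circles in the table. The median log2 difference of the members was -0.30 with 78 of 217 positive, and that of all circles was -0.28. When libraries were rescaled to their own sum over the table, the medians became -0.12 and -0.03, with 98 members positive. Without controls 2 and 4, but with control 3 of lowest summed CPM kept, the members' median was 0.01. In this comparison 4 of the 38 named circles turned direction in that fit, and 3 of 38 with controls 1, 5 and 8 only.

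The Ttc39c circle spans 13223 bases (chromosome 18, 12684837 to 12698059). It had a lowest, median and highest level of 0.571, 2.003 and 2.75 CPM in controls, 0, 0.133 and 0.367 CPM after CCl4, and 0.0971, 1.02 and 1.62 CPM after CCl4+PZH. All 6 controls, each from 7 to 18 reads, lay above all 6 CCl4 livers, each from 0 to 3 reads. The log2 difference was -2.72 (SE 0.74, adjusted p = 0.0353). It kept its direction in 28 alternatives and its call in 16 of them, with adjusted p from 0.00604 to 0.21. The 16 include every fit that left out a CCl4+PZH liver, where the difference stayed at -2.72 by construction. Leaving out any of controls 1, 2, 4 and 8 or CCl4 animals 1, 2, 7 and 8 ended the call, with log2 differences of -2.54 to -2.78 and adjusted p of 0.0621 to 0.159. With controls 1, 5 and 8 alone the difference was -2.53 (adjusted p = 0.189), and without controls 2 and 4 it was -2.36 (adjusted p = 0.21).

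Psd3 and Vrk2 circles were detected in all 6 CCl4 livers and in 1 and 0 controls. Psd3 encodes an exchange factor for the small GTPase Arf6, and its 25909-base circle (chromosome 8, 67882981 to 67908889) had a lowest, median and highest level of 0, 0 and 0.135 CPM in controls, 0.274, 0.463 and 1.31 after CCl4, and 0, 0.0859 and 0.591 after CCl4+PZH. Its 3 control reads all came from animal 3. The log2 difference between CCl4 and control was 2.12 (SE 0.64, adjusted p = 0.109), and it passed the threshold only when control 3 was left out (adjusted p = 0.0489). Vrk2 encodes a serine/threonine kinase, and its 15865-base circle (chromosome 11, 26534211 to 26550075) had 0 reads in controls, 21 reads after CCl4 with levels of 0.0919 to 1.23 CPM, and 10 reads after CCl4+PZH with levels of 0 to 0.515 CPM. Its pooled level after CCl4 was 8.15 times a floor of 3 reads over the 6 controls. This ratio leaves out the counting error of the 21 reads and the spread between mice. The limma difference of the Vrk2 circle was 1.80 (adjusted p = 0.199) and depends on the pseudocount. edgeR and DESeq2 gave adjusted p of 0.0239 and 0.0109.

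Tlk1 encodes a kinase of histone chaperones, and its circle ranked between those of Psd3 and Vrk2 by limma p. The 16992-base Tlk1 circle (chromosome 2, 70770004 to 70786995) had 2 reads in controls, 46 after CCl4 and 47 after CCl4+PZH. CCl4 animal 4 held 24 of the 46 and CCl4+PZH animal 6 held 35 of the 47. Its log2 difference between CCl4 and control was 2.17 (SE 0.69, limma adjusted p = 0.154), and it was 2.38 after rescaling to the table's own sum (adjusted p = 0.0197). Slco1b2 encodes an organic anion transporter of hepatocytes and ranked after Vrk2. Its 8736-base circle had a median of 0.543 CPM in controls (0.179 to 1.22) and 0 after CCl4 (0 to 0.262), with a log2 difference of -1.88 (adjusted p = 0.201). A 7946-base circle of Rere, a transcriptional corepressor, had medians of 0.458 and 0 CPM and a difference of -1.62 (adjusted p = 0.246). These did not pass the limma threshold as designed.

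**Figure D3:**
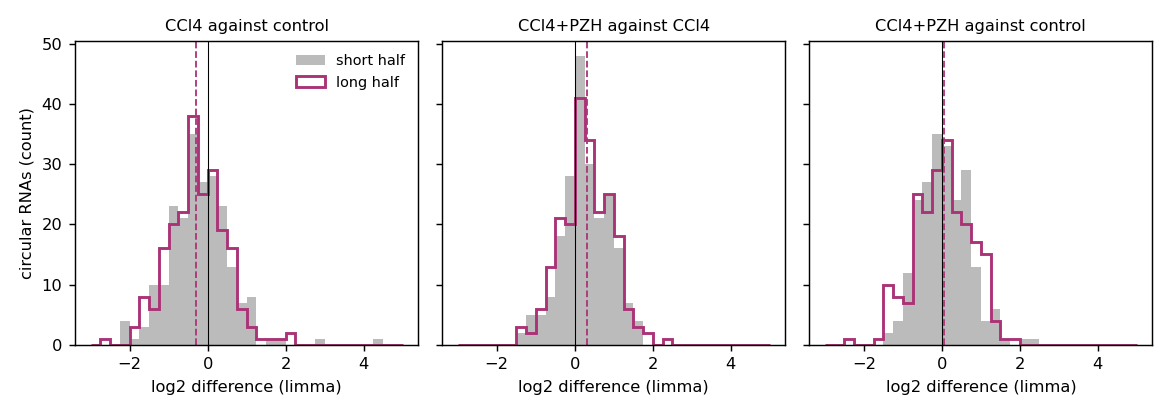
Number of circular RNAs (vertical axis) by log2 difference from limma (horizontal axis), for long-span circles (purple outline) and short-span circles (grey), in the comparisons of CCl4 with control, CCl4+PZH with CCl4, and CCl4+PZH with control. Dashed lines mark the long-span medians of -0.30, 0.31 and 0.04, and both sets overlap over most of their range.

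When PZH was added to CCl4, no member passed the limma threshold, and none of the 434 circles did (0.0%); edgeR and DESeq2 also called none (0.0% each). At an unadjusted p under 0.05 there were 14 members, 12 higher and 2 lower, against 5.53% of all circles. Groups did not overlap for 1 member, the 39299-base Bckdhb circle, against 0.23% of all circles. The members' median log2 difference was 0.31 with 152 of 217 positive, and the median of all circles was 0.23. After rescaling to the table's own sum the medians were 0.07 and 0.03, with 116 members positive, so the excess of positive differences was mostly shared by the table and moved with the scaling.

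Bckdhb encodes a subunit of the branched-chain ketoacid dehydrogenase, which commits the branched-chain amino acids to breakdown. Its 39299-base circle (chromosome 9, 83952524 to 83991822) had a lowest, median and highest level of 0.179, 0.908 and 3.48 CPM in controls, 0, 0.459 and 0.686 after CCl4, and 1.76, 2.06 and 3.44 after CCl4+PZH. All 6 CCl4+PZH livers lay above all 6 CCl4 livers and inside the range of the controls. The log2 difference was 2.45 (SE 0.78, limma adjusted p = 0.79). Adjusted p over 28 alternatives ran from 0.0616 to 0.968.

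The next members by p were circles of Arih1 (a ubiquitin ligase), Msrb3 (a methionine sulfoxide reductase), Gm39583 (a long non-coding RNA gene) and the Ttc39c and Psd3 circles described above, all with a limma adjusted p of 0.804. The 17699-base Arih1 circle had 1 read in 1 of 6 CCl4 livers and 21 reads in 4 of 6 CCl4+PZH livers, with a log2 difference of 1.601. The Msrb3 circle had medians of 0.424, 0.115 and 1.18 CPM in controls, CCl4 and CCl4+PZH, and 1 CCl4 liver at 2.48 CPM lay above 5 of the 6 CCl4+PZH livers. The Gm39583 circle had medians of 0.221, 0 and 0.72 CPM. For Ttc39c the difference was 1.80 and for Psd3 it was -1.48, each opposite in sign to its difference between CCl4 and control. Both comparisons use the same 6 CCl4 libraries, so opposite signs are not independent.

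**Figure D4:**
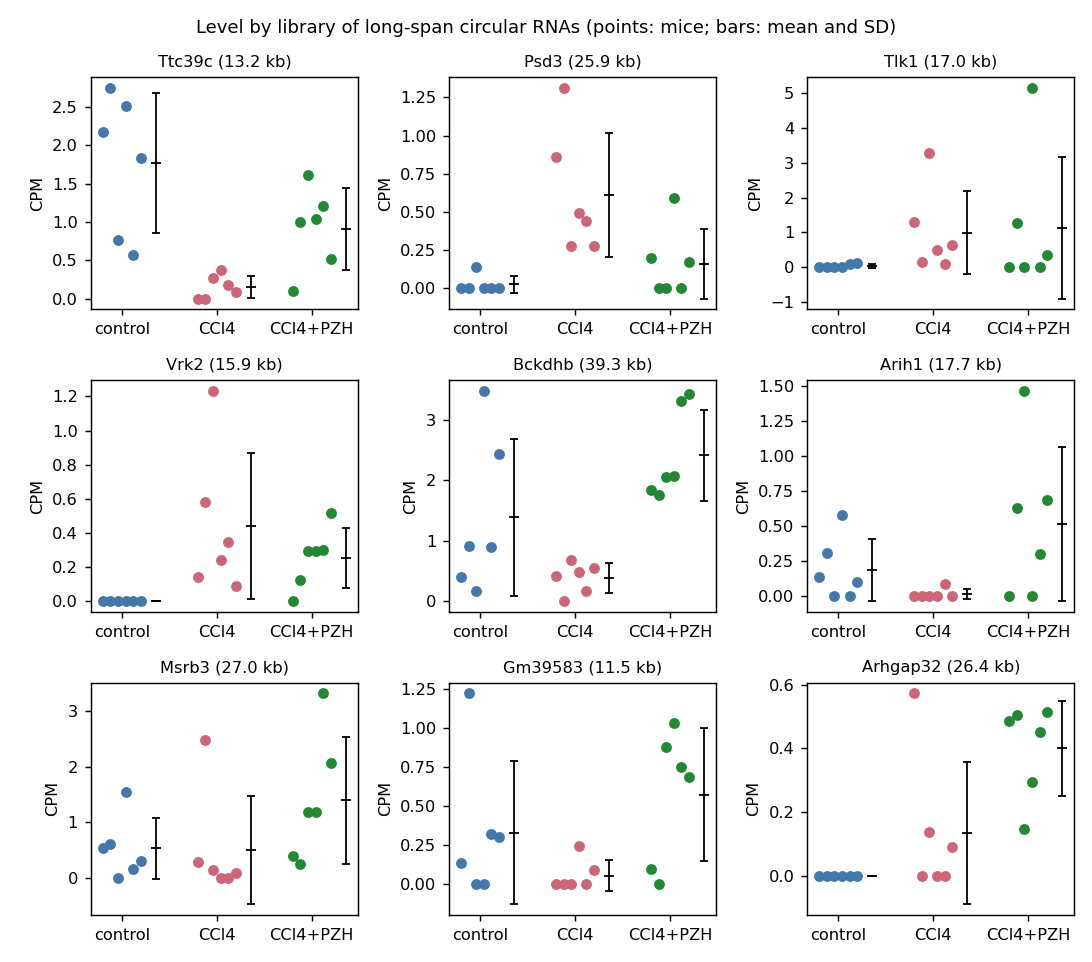
Level (vertical axes, CPM, each with its own scale) of 9 long-span circles in control, CCl4 and CCl4+PZH livers; points are mice, and bars give the mean and SD of 6. Ttc39c is low in all 6 CCl4 livers (at most 0.367 CPM), and Vrk2 and Arhgap32 are at 0 in all controls. Tlk1 is above 0 in all 6 CCl4 livers, and 1 liver stands far above the others in each of the CCl4 and CCl4+PZH groups.

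In the comparison of CCl4+PZH with control, limma called no member and 0.23% of all circles (1 short-span circle), DESeq2 called no member and 0.23% of all, and edgeR called 1 member, the 16992-base Tlk1 circle, against 0.461% of all. At an unadjusted p under 0.05 there were 13 members, 7 higher and 6 lower, against 5.07% of all circles. Groups did not overlap for 1 member, a 26424-base Arhgap32 circle, against 0.461% of all. The members' median log2 difference was 0.04, with 114 of 217 positive, and that of all circles was 0.02. Without controls 2 and 4 these medians were 0.32 and 0.37, with 149 members positive.

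Arhgap32 encodes a GTPase-activating protein. Its 26424-base circle (chromosome 9, 32181842 to 32208265) had 0 reads in the 6 controls, 6 reads in 3 CCl4 livers and 18 reads in all 6 CCl4+PZH livers, where it ran from 0.147 to 0.515 CPM with a median of 0.469. Its pooled level after CCl4+PZH was 8.15 times a floor of 3 reads over the controls, without the counting error of the 18 reads or the spread between mice. The limma difference was 1.92 (SE 0.56, adjusted p = 0.135) and depends on the pseudocount. The Tlcd4 circle had medians of 1.94, 1.33 and 0.369 CPM in controls, CCl4 and CCl4+PZH, with a difference from control of -2.26 (adjusted p = 0.468), and was at 0 in 3 of 6 CCl4+PZH livers. The circle of Phkb, a subunit of phosphorylase kinase in glycogen breakdown, had medians of 0, 0 and 0.312 CPM, and that of Metap1d, a mitochondrial methionine aminopeptidase, had 0, 0.105 and 0.516 CPM. Both differed from control by an adjusted p of 0.763. The Ikzf1 circle, from the gene of the lymphoid transcription factor Ikaros, had medians of 0.0816, 0.505 and 0.538 CPM and a difference of 1.59 (adjusted p = 0.763).

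Hosts were grouped by what their linear genes do. No member of any host list passed the limma threshold in any comparison, so the lists, which were made with earlier results of these data known, are given by counts and medians. Over all 434 circles, 273 were negative between CCl4 and control, 303 were positive between CCl4+PZH and CCl4, and 207 were negative between CCl4+PZH and control. The comparisons with control moved when controls 2 and 4 were left out and control 3, the lowest in summed CPM, was kept. The members' median between CCl4 and control was then 0.01, and 106 of 217 were negative. Of 5 members in genes of bile acids, cholesterol and hepatocyte transport (2 in Slco1b2, 2 in Abca1, the cholesterol exporter, and 1 in Nr1h4, the bile acid receptor), 5 were negative after CCl4 against control (median -0.63) and 5 after CCl4+PZH against control (median -0.68), with the same signs after rescaling to the table's own sum. Both edgeR and the fit without controls 2 and 4 gave 4 and 5, the latter with medians of -0.19 and -0.38. Of 4 members in lipid genes (2 in Acer3, an alkaline ceramidase, with Gramd1c and Tlcd4), 4 were negative in each of those comparisons (medians -0.84 and -1.03), 3 and 4 after rescaling, and 2 and 2 without controls 2 and 4. Both comparisons with control share the control libraries. With controls 1, 5 and 8 only, Gramd1c and Tlcd4 differed by -1.19 and -0.71 between CCl4 and control. The Acer3 circles are not given for that fit.

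Drug metabolism was represented by 2 members, in the carboxylesterase Ces1c and the monooxygenase Fmo5. The Ces1c circle had a median of 0.992 CPM in controls (0.359 to 6.43) and 0.283 after CCl4 (0 to 0.734), with a log2 difference of -1.61 (adjusted p = 0.403), or -1.06 without controls 2 and 4. Plasma protein genes held 4 members (2 in Cfhr3, with Kng2 and Mug1), with differences of -0.67 to 0.07 between CCl4 and control. Cfhr3 and Mug1 belong to families of similar genes, so their counts are uncertain. Genes of amino acid, nucleoside and glucose metabolism held 7 members, 3 of them in Bckdhb, with a median difference of -0.04 between CCl4 and control and 0.53 between CCl4+PZH and CCl4. The first turned to 0.08 after rescaling, 0.10 in edgeR and 0.09 without controls 2 and 4, and the second fell to 0.27 after rescaling and 0.24 in edgeR.

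Among regulators, ubiquitin ligases and conjugases held 6 members (2 in Arih1, with Dcaf8, Nedd4l, Rnf169 and Ube3a). After PZH, 6 of 6 were positive against CCl4 with a median of 0.75, and 5 of 6 after rescaling to the table's own sum and in edgeR. RNA-binding and translation genes held 9 members, 8 of them positive in that comparison (median 0.62), and 7 under both of those settings. Protein kinases held 10 members, with differences between CCl4 and control from -1.24 to 2.17, the top of which was the 16992-base Tlk1 circle. Of the 10, 4 were positive, against 6 after rescaling, 5 in edgeR and 7 without controls 2 and 4. Small GTPase regulators held 13, ranging from -1.50 (Dock4) to 2.12 (Psd3), with 5 positive, and 8 without controls 2 and 4. Chromatin and transcription coregulators held 12, 8 of them negative after CCl4 against control (median -0.60), and 7 after rescaling and without controls 2 and 4 (medians -0.22 and -0.14). Hosts well known for circular RNAs held 15 members, such as Foxp1, Cdk8 and Nrip1, of which 13 were negative after CCl4 against control (median -0.55), 13 after rescaling, 11 in edgeR and 9 without controls 2 and 4 (median -0.09). Of these 15, 3 are circles of Rere.

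The table held few circles from markers of other cell types. None of the 434 lay in the listed endothelial, cholangiocyte or red blood cell markers, 1 short-span circle lay in a stellate cell marker and 4 short-span circles lay in macrophage markers. The only lymphocyte marker with a circle was Ikzf1, a member. The part that cell composition has in the values above was not tested.

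Some long-span circles came in nested pairs. Of the 217, 47 (21.7%) shared 1 end with another circle of the same host, against 16 of the short-span circles (7.37%). Another circle of the table lay inside 27 of the members, which a longer span makes more likely. There were 33 such pairs in the table, of which 21, in 21 hosts, had both circles among the members, 7 had 1 and 5 had none. In 13 of the 21 the circles shared the upstream acceptor end and in 5 the downstream donor end, while for 3 the strand was not in the table used. The circle of shorter span held more reads in 12 of the 21 pairs and that of longer span in 9, and 9 pairs kept the same order in all 3 groups. Within a pair, the balance between the circles is free of the library scaling.

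**Figure D5:**
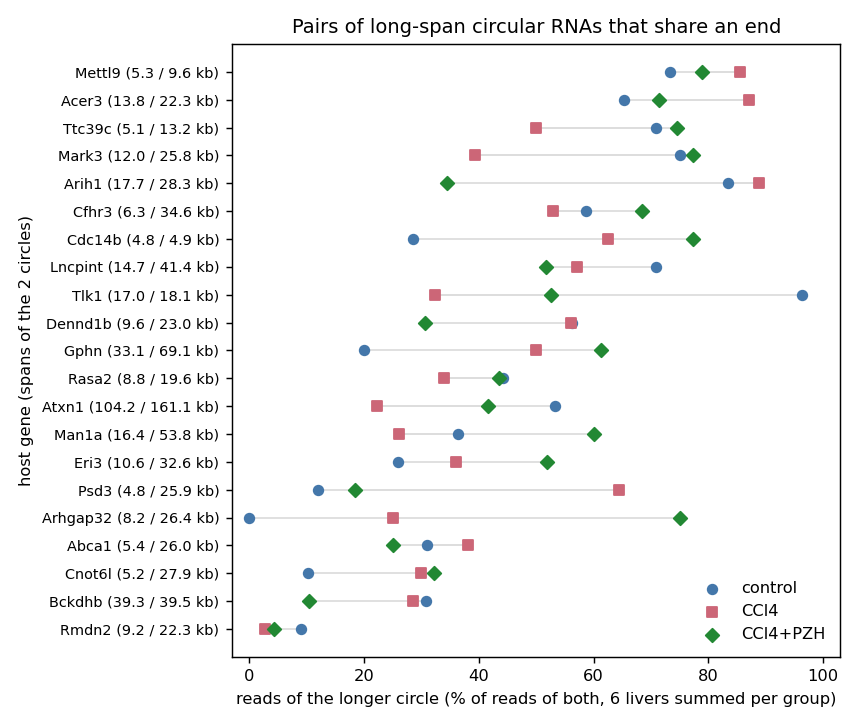
Reads of the longer circle as a percent of the reads of both circles (horizontal axis), summed over 6 livers per group, for the 21 hosts whose 2 circles share an end (vertical axis, with both spans in kb). Circles, squares and diamonds stand for control, CCl4 and CCl4+PZH; the widest spreads between groups are those of Arhgap32 and Tlk1, and Rmdn2 stays at 2.78% to 8.97%.

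In Arhgap32, controls held 25 reads of the 8220-base circle and 0 of the 26424-base one, CCl4 livers 18 and 6, and CCl4+PZH livers 6 and 18. In Tlk1 the 18134-base circle held 51 of 53 reads in controls, while the counts of shorter and longer were 46 and 22 after CCl4 and 47 and 52 after CCl4+PZH. Without the single library that led each count of the shorter Tlk1 circle, 22 and 12 reads were left. In Psd3 the counts of the 4773-base and 25909-base circles were 22 and 3 in controls, 16 and 29 after CCl4, and 31 and 7 after CCl4+PZH.

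The 2 Bckdhb circles that share their downstream end start only 241 bases apart. The shorter held 63, 20 and 103 reads in controls, CCl4 and CCl4+PZH, and the longer 28, 8 and 12. In Gphn, which encodes gephyrin, a scaffold that also builds the molybdenum cofactor, the 33066-base circle led in controls (52 against 13 reads) and the 69082-base circle in CCl4+PZH (30 against 19), with 14 each after CCl4. The Arih1 pair held 6 reads of the 17699-base and 30 of the 28347-base circle in controls, 1 and 8 after CCl4, and 21 and 11 after CCl4+PZH. By contrast, Mettl9 kept more reads in its 9562-base circle in every group (66 of 90, 77 of 90 and 56 of 71), and Rmdn2 in its 9172-base circle.

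Each pair was tested by an exact two-sided permutation test over livers on log2((longer + 0.5)/(shorter + 0.5)) reads per library, with 99 tests over 33 pairs and 3 comparisons. None passed after Benjamini-Hochberg adjustment over the 99 (0.0% in each comparison), the smallest adjusted p was 0.536, and the smallest p the permutations can give is 0.00216. At an unadjusted p under 0.05 there were 2 pairs in CCl4 against control (6.06% of 33), 3 in CCl4+PZH against CCl4 (9.09%) and 2 in CCl4+PZH against control (6.06%), all with both circles among the members. The largest was Arhgap32 in CCl4+PZH against control, with mean log2 balances of -2.77 ± 1.51 and 1.57 ± 1.64 (SD, n = 6 each, exact permutation p = 0.00649, adjusted p = 0.536). For Bckdhb in CCl4+PZH against CCl4 the balance differed by -1.92 (exact permutation p = 0.0108), for Psd3 by -3.37 (p = 0.0238, exact permutation) and for Tlk1 in CCl4 against control by -3.20 (exact permutation p = 0.0433). The pairs were picked for testing after their reads had been seen.

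Of the hosts, 26 held 2 or more members, and 14 also hosted a short-span circle. Rere, Psd3 and Bckdhb each held 3. The 3 Rere circles (7946, 8774 and 10036 bases) share no end and cover separate stretches of the gene. Their log2 differences were -1.62, -1.29 and -1.34 between CCl4 and control and -1.49, -1.35 and -1.16 between CCl4+PZH and control, none past the limma threshold. Without controls 2 and 4 they were -1.33, -0.59 and -0.96 between CCl4 and control and -1.20, -0.66 and -0.77 between CCl4+PZH and control. In Bckdhb, the third circle (23844 bases, 150 reads, above 0 in all 18 libraries) had medians of 0.898, 0.98 and 1.08 CPM in controls, CCl4 and CCl4+PZH, with a difference of -0.12 between CCl4+PZH and CCl4. Its difference between CCl4 and control was -0.15 and turned to 0.15 after rescaling, 0.42 without controls 2 and 4 and 0.27 with controls 1, 5 and 8 only. In Psd3 the 4773-base circle had a difference of -0.35 between CCl4 and control and the 25909-base circle 2.12 (-0.57 and 2.04 without controls 2 and 4). That of the 16505-base circle was -0.53, turned to 0.20 without controls 2 and 4, and was -0.05 with controls 1, 5 and 8 only. The Ttc39c pair held 80 reads of the 13223-base circle and 33 of the 5051-base one in controls, 8 and 8 after CCl4, and 38 and 13 after CCl4+PZH, and the shorter had a difference of -1.03 between CCl4 and control (adjusted p = 0.702).

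The longest members were thinly covered. The 189347-base circle on chromosome 6 (121874392 to 122063738, around Mug2) and the 106908-base circle on chromosome 5 (87136094 to 87243001, around Ugt2b5) lie in no single host gene, as does the 63219-base circle on chromosome 4 (62084759 to 62147977, around Mup3). These regions hold families of similar genes, so an apparent back-splice there is uncertain. They had 28 reads (4, 9 and 15 in controls, CCl4 and CCl4+PZH) for chromosome 6 and 22 reads (12, 2 and 8) for chromosome 5. Atxn1, the gene of a polyglutamine ataxia, held circles of 161067 and 104248 bases that share an end, with 27 and 42 reads. The group medians of these circles reached at most 0.552 CPM, and no comparison of the 4 longest passed the limma threshold.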

How the data were processed

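Circular RNA was measured in 18 mouse livers by sequencing after ribosomal RNA depletion. The authors deposited CPM values (back-splice reads scaled to a library total) for 434 circular RNAs, each identified by its position alone. The submitters' processing notes list the build GRCm38 with HISAT2 2.2.1, Bowtie2 2.5.1, StringTie 2.1.5, cutadapt 4.2 and FastQC 0.11.9. Which program called the circles, which total the CPM refers to and how the 434 were selected is not given in the sources used here. All 434 were above 0 in at least 9 of the 18 libraries.

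The span was computed as end minus start plus 1, and the 217 largest were taken. Although the rule uses position alone, it and the host gene lists were chosen with earlier results of these data known. Host genes, gene lengths and strands came from RefSeq tables of GRCm38.p6, by position. Exons were not used here.

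Each library's deposited CPM values were whole multiples of its smallest step in 7812 of 7812 values (100% within 0.1 read), so reads were recovered by division. The main test was limma 3.58.1 with a mean trend, on log2(CPM + 0.13655), fitted to all 434 circular RNAs and all 18 libraries, with p-values adjusted by Benjamini and Hochberg and a threshold of 0.05. A filter of above 0 in 6 libraries removed none. On the log2(CPM + pseudocount) scale, fold changes of low circles come out too small. edgeR 4.0.16 (TMM, quasi-likelihood) and DESeq2 1.42.0 on the recovered reads, other pseudocounts, a stricter filter, rescaling to each library's sum over the table, leaving out libraries and a replicate block were the alternatives. The limma fit was tested on simulated data for CCl4 against control, and the edgeR and DESeq2 fits were not. The rule for naming took, in each comparison, called members filled up to 6 by rising p, the 8 most abundant, the 4 longest and 4 shortest, hosts with 3 or more members, and 1 member per host list. Other members of host lists, of pairs and at gene starts were named after their values were seen. The result of 1 host list, with 1 member, is not reported here. The comparison of circles that share an end was chosen after the data were seen. It used exact permutation tests over all 924 deals of the livers, checked against SciPy 1.17.1 on 1 simulated pair. Same-numbered animals of different groups did not deviate together (correlations of -0.154 to 0.0794 over circular RNAs), so the numbers were not taken to pair them.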

Additional observations from a re-analysis of the deposited data

Results flagged for a closer look

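Of 117 sets of 6 livers of 1 group examined, 28 held a liver that stood apart by Dixon's test, all for named long-span circles. The nominal rate of 5% corresponds to about 5.85 sets. That rate assumes normally distributed values, and these are low counts with many zeros, so the number expected by chance is not known. In 2 of the 28 the liver was the only one with any reads. The outlying livers were spread over the groups, and controls 2 and 4, which had the highest summed CPM, made up 10 of the 11 in the controls.

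Control 4 was high for the circles of Tlcd4 (5.23 CPM), Mettl9 (9562 bases, 5.81), Bckdhb (39540 bases, 2.52, and 23844 bases, 4.26), Morc3 (2.71) and Ikzf1 (0.968). Control 2 was high for Eed (6.43 CPM), Ces1c (6.43) and Gm39583 (1.22). Control 3 was the only control with the 25909-base Psd3 circle (0.135 CPM).

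After CCl4, animal 4 was high for the 16992-base Tlk1 circle (3.29 CPM), for Ipo7 (0.549) and for the 161067-base Atxn1 circle (0.274). Animal 1 was high for the 26424-base Arhgap32 circle (0.572 CPM) and the 104248-base Atxn1 circle (1.29). Animal 2 was high for Msrb3 (2.48 CPM), animal 5 for Phkb (0.489) and the 4773-base Psd3 circle (1.10), and animal 8 for the 39540-base Bckdhb circle (0.46). Animal 7 was the only CCl4 liver with the 17699-base Arih1 circle (0.0874 CPM). The Ube3a circle was at 0 in animal 8, while the other 5 CCl4 livers lay between 2.45 and 3.80 CPM.

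After CCl4+PZH, animal 6 was high for the 16992-base Tlk1 circle (5.17 CPM) and the 25909-base Psd3 circle (0.591). Animal 7 was high for the 10036-base Rere circle (1.36 CPM) and the 34556-base Cfhr3 circle (1.21). Animal 3 was high for the 9562-base Mettl9 circle (2.94 CPM), and animal 2 for the circle on chromosome 5 around Ugt2b5 (0.629).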

How the results depend on the processing

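Of the counts, shares and medians, 174 values under alternatives stayed near the value reported and 24 moved. For the 18 pairs of a circle and a comparison chosen by p, 476 values kept direction and side of the threshold, 5 passed it anew, 12 lost it and none turned. Over all 38 named circles, directions that turned in CCl4 against control, CCl4+PZH against CCl4 and CCl4+PZH against control were 1, 5 and 0 after rescaling to the table's own sum, 4, 0 and 5 without controls 2 and 4, and 3, 0 and 5 with controls 1, 5 and 8 only. Members called between CCl4 and control, 1 as reported, were 0 with a pseudocount of 1 CPM, 2 after rescaling to the table's own sum, 3 by edgeR, 2 by DESeq2, and 0 to 2 when each liver was left out in turn. They were 0 with controls 1, 5 and 8 only, which leaves out the separately numbered controls 2, 3 and 4. Members called were also 0 without controls 2 and 4, a choice made after seeing the data. Between CCl4+PZH and control, edgeR called 1 member in place of 0. With a replicate block, members called were 0 in each comparison, and same-numbered animals did not deviate together. Median shares of reads in controls, CCl4 and CCl4+PZH were 35.0%, 32.1% and 33.6% for the longest 145 circles and 22.8%, 22.5% and 22.9% for the longest 108. Without the 3 circles of highest mean CPM, also chosen after seeing the data, the CCl4 median was 44.2%. The cause of these moves was not tested beyond what each setting changes by construction. Depth limits all values, since most circles had few reads in a library.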
